A study of Mus musculus with 6 samples.

Results

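The chemokine ligands are the genes whose symbol is Ccl, Cxcl or Cx3cl followed by a number. The gene list of these data held 43 of them among 31053 genes, 30 of the CC family, 12 of the CXC family and 1 of the CX3C family. They were followed in single nuclei of mouse kidney cortex (strain FVB/N), in 3 control libraries of genotype Klf4 fl/fl and 3 knockout libraries of genotype Podocin-Cre Klf4 fl/fl. Both groups carry the loxP-flanked Klf4 allele, and only the knockouts carry the Cre recombinase, which the podocin promoter drives in podocytes, the filter cells of the glomerulus. No other cell type studied here is a target of that promoter by design. The labels give no age or sex, and they do not say whether a library came from 1 animal.

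Chemokine ligands are small secreted proteins that guide leukocytes through receptors on the leukocyte surface. The inflammatory ligands, such as Ccl2 for monocytes, Cxcl1 and Cxcl2 for neutrophils and Cxcl10 for activated T cells, are switched on in injured epithelium, largely through NF-kB and interferon signalling. The homeostatic ligands are made without injury: Cxcl12 holds cells that carry Cxcr4 and supports the glomerular vessels, Ccl28 and Ccl25 serve mucosal lymphocyte traffic, and Cx3cl1 is a membrane-bound ligand for Cx3cr1 on myeloid cells.

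After filtering, 54429 nuclei were kept, 3741 to 18240 per library with 7746712 to 48589629 unique molecular identifiers (UMIs, counts of captured RNA molecules). Control 1 and knockout 1 stood apart, with 16729 and 18240 nuclei and a median mitochondrial share of 2.54% and 1.09% against 0.0845 to 0.163% in the other 4 libraries. Of the kept nuclei, 719 (1.32%) had a barcode found in more than 1 library. Klf4 itself could not check the labels, since podocyte nuclei held 1, 0 and 0 Klf4 UMIs in controls 1 to 3 and 4, 0 and 1 in knockouts 1 to 3. Cell classes were named from marker genes, and each name stands for nuclei that are like that type. Injured tubule nuclei numbered 116, 6 and 32 in controls 1 to 3 against 2030, 524 and 328 in knockouts 1 to 3, and parietal epithelial nuclei 29, 16 and 16 against 133, 83 and 67.

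RNA from the proximal tubule was found in every class. The 12 proximal tubule markers, summed, reached in other classes 25.9 to 81.4% of their proximal tubule level in the controls and 16.0 to 79.5% in the knockouts. The 81.4% was in cycling nuclei, and injured tubule was at 77.2% in the controls. These classes can hold tubule nuclei, so their share need not be free RNA. Free RNA of a tubule-made ligand would stand at a like share in classes that do not make it, so this value is given beside the class levels of Cxcl12, Ccl28, Ccl25 and Cxcl1. In immune nuclei, it was 79.1% for the controls and 79.5% for the knockouts.

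Stretches of DNA upstream of 4 ligands are shown, 3 inflammatory ligands with matches to inducible elements and Cxcl12 without one in its window. Each is the RefSeq promoter sequence of build GRCm38.p6, read 5′ to 3′ on the gene's strand, and ends 41 bases before the RefSeq start. Capitals mark matches, on either strand, to the NF-kB consensus, to the core of the interferon-stimulated response element (GAAANNGAAA) or to the AP-1 element (TGACTCA). The 4 windows lie at chr5:90891115-90891204 (Cxcl1, plus strand), chr5:90903769-90903858 (Cxcl2, plus strand), chr5:92348930-92349139 (Cxcl10, minus strand) and chr6:117168405-117168494 (Cxcl12, plus strand).
Cxcl1: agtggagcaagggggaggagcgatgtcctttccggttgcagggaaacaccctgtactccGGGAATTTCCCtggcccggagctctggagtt
Cxcl2: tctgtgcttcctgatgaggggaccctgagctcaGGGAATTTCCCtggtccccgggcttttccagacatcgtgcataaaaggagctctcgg
Cxcl10: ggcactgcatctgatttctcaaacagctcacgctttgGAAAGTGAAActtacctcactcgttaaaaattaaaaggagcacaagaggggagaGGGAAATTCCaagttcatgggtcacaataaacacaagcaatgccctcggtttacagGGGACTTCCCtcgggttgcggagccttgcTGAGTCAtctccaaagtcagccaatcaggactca
Cxcl12: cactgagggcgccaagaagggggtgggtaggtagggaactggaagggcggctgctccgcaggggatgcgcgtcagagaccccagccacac

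The capital letters of Cxcl1 and of Cxcl2 are the same, and each run holds overlapping matches on both strands. In the 250 bases before the start, the NF-kB consensus was found in 6 of the 26 ligand symbols with an entry (Ccl9, Ccl20, Cxcl1, Cxcl2, Cxcl3 and Cxcl10) and in 3.9% of all 32851 promoters. The interferon core was found in Ccl19, Cxcl10 and Cxcl14 and in 2.98% of all promoters, and the AP-1 element in Ccl27a, Ccl27b and Cxcl10 and in 4.46%. A match is a description of the letters and shows no binding. Ccl2, Ccl5, Cxcl16 and Cxcl17 had no entry and were not searched.

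Levels are given as CPM, UMIs scaled to the same total in every library or class. Most ligand RNA came from few genes. Of the 43 members, 34 had a UMI in kept nuclei, 17 had at least 30 UMIs, and Ccl28, Cxcl12, Ccl25 and Cxcl1 together held 88.2% of the 57817 ligand UMIs. The 9 members at 0 UMIs were copies of Ccl19, Ccl21a, Ccl21b, Ccl21c, Ccl27 and Ccl27b, near-identical genes whose reads cannot be placed with certainty, 7 of them on unplaced scaffolds. Ccl19 (32 UMIs), Ccl21a (68 UMIs) and Ccl27a (472 UMIs) on chromosome 4 are uncertain for the same reason. Over all kept nuclei, 14 members passed the filter on low counts. Of these, 8 were higher and 6 lower in the knockouts, with a median log2 change of 0.26 against -0.03 over the 16130 genes tested.

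No ligand passed an adjusted p of 0.05 over all nuclei in edgeR's quasi-likelihood test, in which 0.192% of all genes did. At an unadjusted p under 0.05 there were 7 of 14 ligands, against 9.91% of all genes. With the replicate number as a block, 4 ligands passed, against 1.73% of all genes: Ccl2, Cxcl2 and Cxcl10 rose and Cxcl12 fell. The same 4 passed in DESeq2 (2.59% of all genes) and without both libraries numbered 1 (2.88%). Every knockout library was above every control for 5 of the 14 (10.7% of all genes) and below for 2 (5.52%). In bulk sums such as these, a change in the number of cells and a change of RNA per cell cannot be told apart, and the levels by class follow for that reason.

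**Figure D1:**
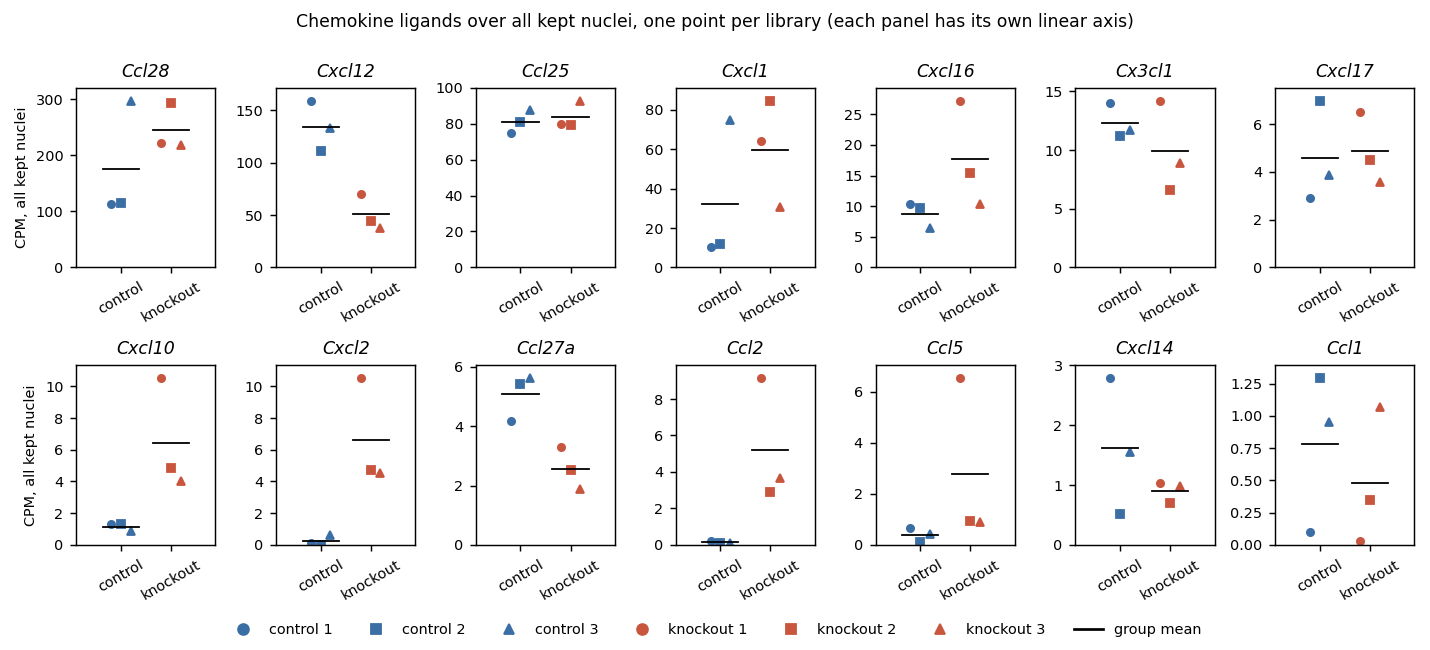
Level in CPM of the 14 tested ligands over all kept nuclei, on a linear axis of its own in each panel, with 1 point per library and a line at the group mean (n = 3). Cxcl12 and Ccl27a are lower in all knockouts, and Ccl2, Cxcl2, Cxcl10, Cxcl16 and Ccl5 are higher in all knockouts.

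Ccl2 (chr11:82035571-82037453, plus strand), which draws monocytes through Ccr2, went from almost no signal to a measurable level. Over all nuclei it was at 0.206, 0.129 and 0.0862 CPM in controls 1, 2 and 3 and at 9.13, 2.88 and 3.65 CPM in knockouts 1, 2 and 3. All knockouts were above all controls, by 4.90 on the log2 scale (SE 0.66, edgeR adjusted p = 0.0597; 5.18 and adjusted p = 0.0102 with the block). The controls held only 12 Ccl2 UMIs in all.

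The highest class level of Ccl2 was in parietal epithelial nuclei, a cluster led by Tnc, Cdh6 and Akap12. There it was at 13.1, 0 and 0 CPM in the controls, from 1 UMI, and at 79.9, 50.4 and 104 CPM in the knockouts, from 22, 6 and 12 UMIs. The pooled ratio was 9.92 (95% exact interval of counting error 1.68 to 401), and the gene did not pass the filter in this class. Injured tubule came next, at 31.0, 23.6 and 36.0 CPM in the knockouts. Proximal tubule nuclei were at 5.01, 0.27 and 0.453 CPM, so knockout 1 was high there and the other knockouts near the controls.

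Cxcl2 (chr5:90903871-90905938, plus strand), a neutrophil attractant, was also highest in injured tubule and parietal epithelial nuclei. Unlike Ccl2, it was higher on average in injured tubule. Over all nuclei it was at 0.123, 0 and 0.604 CPM in the controls and at 10.5, 4.73 and 4.54 CPM in the knockouts, with no overlap. The log2 change was 4.78 (SE 0.84, edgeR adjusted p = 0.0899; adjusted p = 0.0365 with the block). Injured tubule nuclei held 65.2% of the 471 knockout UMIs of Cxcl2, against 40.3% for Ccl2, while holding 9.34% of all knockout UMIs. In parietal epithelial nuclei no control library had a UMI, and the knockouts were at 40, 16.8 and 69.1 CPM, which is at least 1.74-fold higher when the control group is put at its floor of 3 UMIs.

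Cxcl1 (chr5:90891241-90893115, plus strand), the neighbour of Cxcl2 with the same receptor, was abundant in 1 control too. Over all nuclei it was at 10.2, 11.9 and 75.0 CPM in the controls and at 64.2, 84.6 and 30.5 CPM in the knockouts. Control 3 lay inside the knockout range, and the difference was within the spread (log2 change 0.86, SE 0.78, edgeR adjusted p = 0.797); without control 3 the log2 change was 2.38 (adjusted p = 0.233). Much of this RNA was in the proximal tubule, at 11.6, 15.8 and 94.0 CPM in the controls against 57.4, 87.0 and 28.8 CPM in the knockouts. Injured tubule stood at 308% of the proximal tubule level of Cxcl1 against 53.3% for the tubule markers in the knockouts, and at 206% against 77.2% in the controls. Parietal epithelial nuclei stood at 174% against 30.5% in the knockouts and at 43.4% against 61.6% in the controls. Smaller gaps were found in other knockout classes, such as podocytes (46.2% against 20.4%) and connecting tubule (50.3% against 30.8%).

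Cxcl10 (chr5:92346638-92348889, minus strand, inside the gene Art3 on the other strand), an interferon-induced ligand of Cxcr3, was at 1.30, 1.29 and 0.862 CPM in the controls and at 10.5, 4.84 and 4.01 CPM in the knockouts. The groups did not overlap, with a log2 change of 2.42 (SE 0.47, edgeR adjusted p = 0.119; adjusted p = 0.0278 with the block). In injured tubule it was at 36.0 CPM in control 1, from 11 UMIs, at 0 in the other controls, and at 51.4, 32.8 and 37.8 CPM in the knockouts, so the groups overlapped there. Stromal nuclei (mesangial, mural and fibroblast) were the second class in the knockouts, at 1.99, 0 and 2.61 CPM against 17.9, 15.3 and 11.3 CPM.

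Cxcl16, a membrane-bound ligand of Cxcr6, was at 10.3, 9.68 and 6.38 CPM in the controls and at 27.2, 15.4 and 10.4 CPM in the knockouts over all nuclei. The groups did not overlap by a small margin, and the gene missed the threshold (log2 change 0.96, SE 0.39, edgeR adjusted p = 0.489; 0.0951 with the block). Its highest knockout levels were in injured tubule and in parietal epithelial nuclei, the latter at 13.1, 80.1 and 39.7 CPM against 47.2, 75.5 and 60.5 CPM. Ccl5, a T cell and monocyte attractant, was at 0.659, 0.129 and 0.431 CPM against 6.52, 0.922 and 0.891 CPM. Knockout 1 held most of it, and the log2 change of 2.57 (edgeR adjusted p = 0.414) was 0.92 without that library. Injured tubule nuclei of knockout 1 were at 34.0 CPM of Ccl5, and those of knockouts 2 and 3 at 3.93 and 10.8 CPM.

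**Figure D2:**
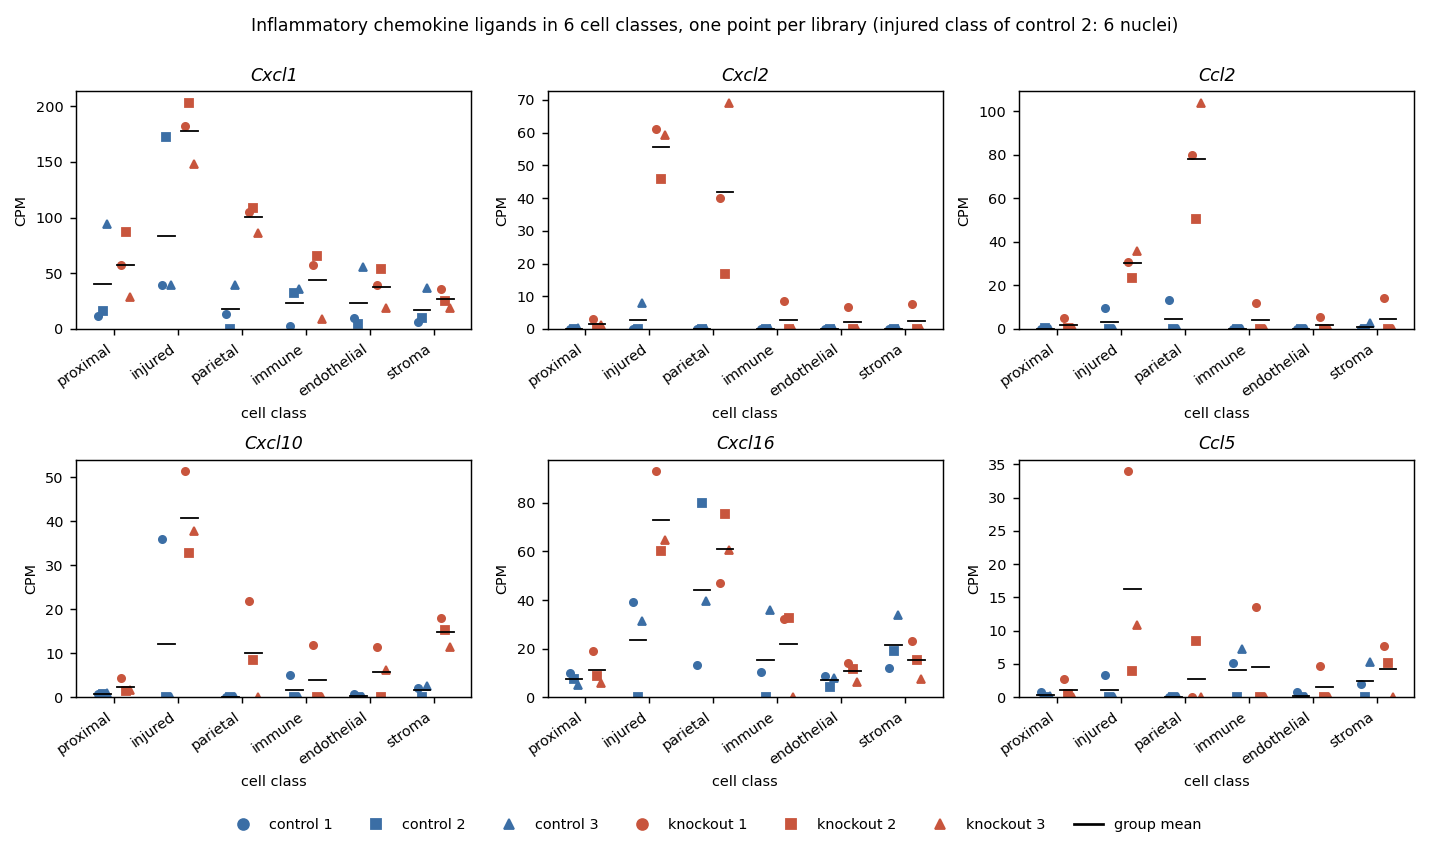
CPM of 6 inflammatory ligands on linear axes in 6 cell classes, with 1 point per library and a line at the group mean (n = 3; control 2 has 6 injured nuclei). Cxcl2 and Ccl2 reach at most 14.1 CPM outside injured tubule and parietal epithelial nuclei.

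Injured tubule could be tested without control 2, which had 6 nuclei there, as 2 controls against 3 knockouts, a choice made after seeing the data. In this fit 2.35% of 7830 genes passed, and 3 of the 8 ligands tested did. Cxcl1 rose, from 39.3 and 39.4 CPM in controls 1 and 3 to 182, 203 and 148 CPM (log2 change 2.13, SE 0.31, edgeR adjusted p = 0.0189). Cxcl2 rose, from 0 and 7.88 CPM to 61.1, 45.9 and 59.4 CPM (4.46, SE 0.82, adjusted p = 0.0338), with 1 UMI in these controls. Cxcl12 fell, from 141 and 94.5 CPM to 33.0, 17.0 and 9.0 CPM (-2.45, SE 0.47, adjusted p = 0.0379). With control 2 included, Cxcl12 stood in this class at 88.8% of its proximal tubule level in the controls, beside 77.2% for the tubule markers. In the knockouts it stood at 31.3% beside 53.3%, and the part of tubule RNA in this fall was not tested. Ccl2 (2.08, adjusted p = 0.168), Cxcl16 (0.98, adjusted p = 0.216) and Cxcl10 (0.76, adjusted p = 0.592) did not pass. The median of the 8 was 0.87 against 0.02 for all genes. The filter on low counts keeps a gene that is high in 1 group alone, so this median is a description. In the controls of this class, Ccl2 had 3 UMIs and Cxcl2 had 1 UMI.

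The injured class was not the same mixture in both groups, and the part of that mixture in these differences was not tested. Of 2882 knockout nuclei, 1245 were in a cluster led by Cd44, Havcr1 and Vcam1, while 14 of 154 control nuclei were, and 90 control nuclei were in a cluster led by Dock10. Of the 4 clusters in the class, the Dock10 cluster scored highest for the parietal epithelial markers and a smaller one of 192 nuclei for the cycling markers. The Cd44 cluster had the highest knockout means of all 6 ligands among the 4 injured clusters. There Cxcl1 was at 222, 264 and 233 CPM, Cxcl2 at 101, 99.0 and 117 CPM, Ccl2 at 49.5, 61.3 and 73.4 CPM and Cxcl16 at 123, 108 and 99.3 CPM in the knockouts. The 9 nuclei of control 1 in that cluster had 5 UMIs of Cxcl1 (174 CPM), 3 of Ccl2 (104 CPM) and 3 of Cxcl16 (104 CPM). They had 0 of Cxcl2. The 2 nuclei of control 3 had 1 UMI of Cxcl16, or 215 CPM. Ccl2 and Cxcl16 were thus not above all controls there, and the groups were not tested within the cluster. In the Dock10 cluster the knockouts were lower, with Cxcl2 at 17.4, 32.8 and 26.3 CPM and Ccl2 at 19.6, 20.5 and 13.2 CPM.

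Ligand UMIs were found in part of the nuclei, and at a median of 1059.5 to 1731 UMIs per nucleus in the 4 injured clusters a nucleus at 0 may still hold the RNA. In knockout injured tubule, 658 of 2882 nuclei had a Cxcl1 UMI, 394 had Cxcl16, 210 had Cxcl2, 115 had Ccl2 and 88 had Ccl5. Of 407 knockout immune nuclei, a cluster with a median of 1642 UMIs, 30 had a UMI of Cxcl1, 20 of Cxcl16, 5 of Cxcl2, 6 of Ccl2 and 8 of Ccl5. Of 12 myeloid markers, 11 had UMIs in injured tubule of the knockouts, with Itgam at 0, and their summed level was 69.5 to 147 CPM there (39.4 to 343 CPM in the controls) against 699 to 1009.6 CPM in immune nuclei. In knockout proximal tubule it was 48.7 to 92.5 CPM. In knockout parietal epithelial nuclei 6 of the 12 myeloid markers had UMIs, summing to 25.9 to 145 CPM (40 to 198 CPM in the controls), with C1qb, Mrc1, Itgam, Cybb, Flt3 and Lyz2 at 0. There 6 of 11 lymphoid markers summed to 86.4 to 138 CPM (119 to 170 CPM in the controls). All 4 neutrophil markers were at 0 in that class, as were 3 of 4 in knockout immune nuclei.

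Cxcl12 (chr6:117168535-117181367, plus strand), the ligand of Cxcr4 and Ackr3, was the main member lower in the knockouts. Over all nuclei it was at 159, 111 and 133 CPM in the controls and at 69.9, 44.4 and 37.8 CPM in the knockouts. The groups were far apart, with a fold of 2.76 lower in the knockouts (log2 change -1.47, SE 0.28, edgeR adjusted p = 0.110; -1.5 and adjusted p = 0.0141 with the block). Knockouts recomputed with each class at its control share of UMIs were at 53.8 ± 17.5 CPM (SD, n = 3) against 50.7 ± 17.0 CPM as measured. For Cxcl2 the same step lowered the knockout mean from 6.59 to 2.3 ± 2.01 CPM, with knockouts 1 to 3 at 4.58, 0.799 and 1.52 CPM. Ccl2 went from 5.22 to 2.54 ± 3.07 CPM, with the knockouts at 6.06, 0.393 and 1.16 CPM. Cxcl10 went from 6.45 to 3.47 ± 1.82 CPM, with the knockouts at 5.57, 2.43 and 2.41 CPM. Knockout 1 was the highest for each of these genes.

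The mean of Cxcl12 was lower in the knockouts in all 12 classes with at least 10 nuclei in every library. The groups did not overlap in 8 of the 12, where 5.35% of all gene and class pairs were lower without overlap. In stromal nuclei, the class with the highest level, it was at 193, 171 and 185 CPM against 110, 76.6 and 129 CPM (log2 change -0.81, SE 0.24, edgeR adjusted p = 0.280). In the proximal tubule it was at 179, 125 and 154 CPM against 87.8, 54.6 and 46.0 CPM (-1.30, SE 0.28, adjusted p = 0.347; 0.0633 with the block and 0.00587 in DESeq2). The mean was lower in all 8 proximal tubule clusters with at least 20 nuclei in every library, which come from the same 6 libraries. With the block, Cxcl12 fell in intercalated (adjusted p = 0.00911) and principal nuclei (adjusted p = 0.0299), where 1.21% of all gene and class pairs passed. Cycling nuclei were not the same mixture in both groups. A cluster led by Mki67 held 93 control and 203 knockout nuclei, and one led by Top2a held 28 and 725. Cxcl12 was at 301 ± 259 against 46.4 ± 40.7 CPM (SD, n = 3) in the Mki67 cluster. In the Top2a cluster it was at 58.0 ± 51.5 against 56.5 ± 18.8 CPM. The part of that mixture in the class level was not tested.

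These classes are not independent measurements of Cxcl12. In control immune, endothelial, intercalated and principal nuclei it stood at 82.7, 72.5, 66.5 and 64.4% of its proximal tubule level, beside 79.1, 62.2, 67.8 and 60.3% for the tubule markers. In the knockouts it stood at 73.1, 77.5, 58.8 and 62.7%, beside 79.5, 63.4, 51.9 and 66.5%. The part of tubule RNA in these levels was not tested. Stromal nuclei were further above the markers, at 120% against 58.0% in the controls and 167% against 53.2% in the knockouts.

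**Figure D3:**
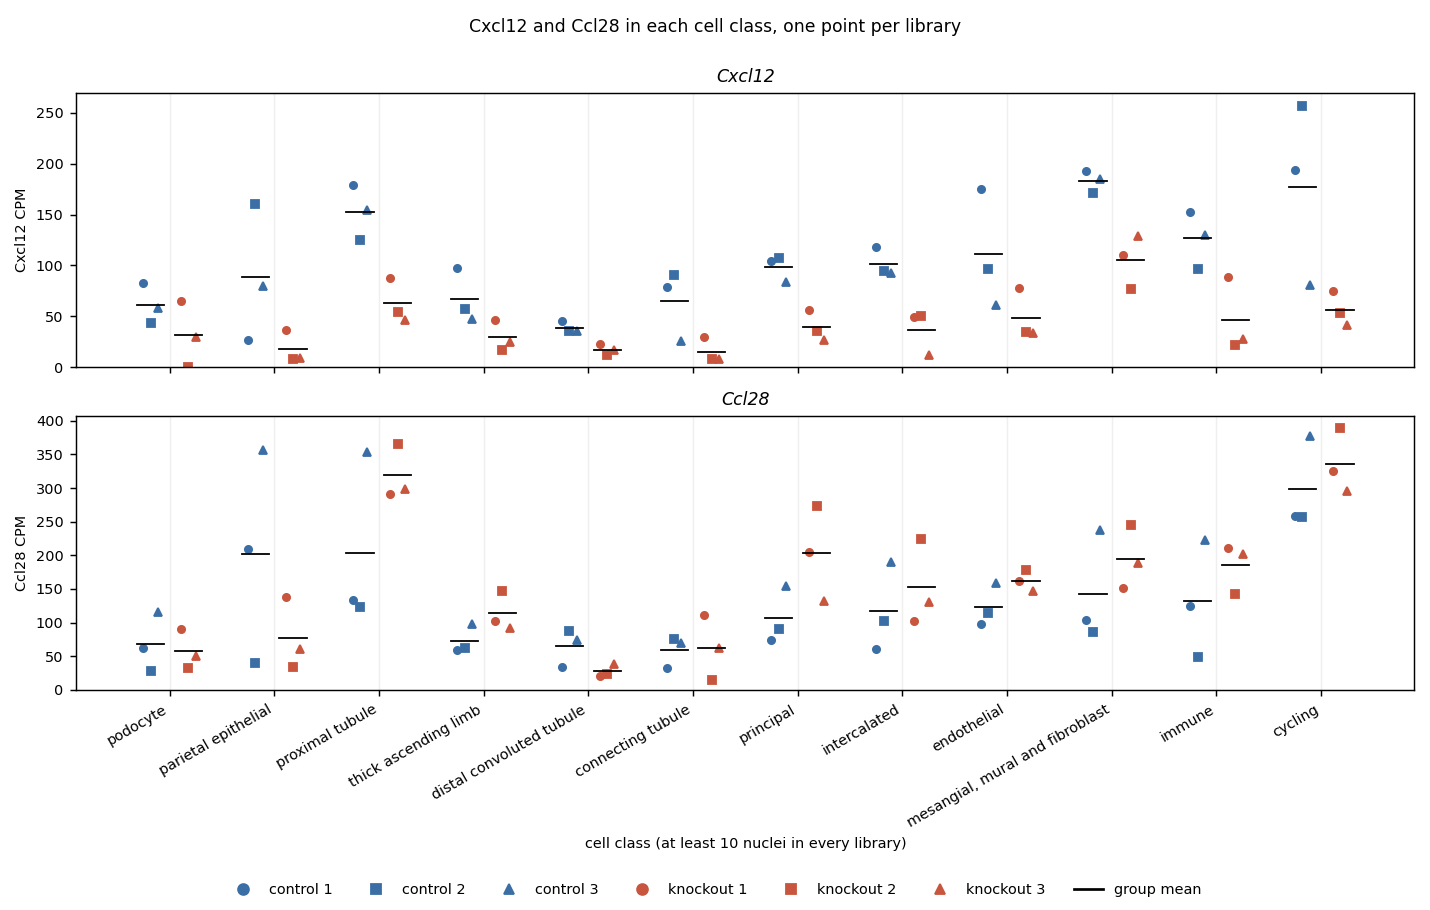
CPM of Cxcl12 (top) and Ccl28 (bottom) on linear axes in the 12 classes with at least 10 nuclei in every library, with 1 point per library and a line at the group mean (n = 3). Cxcl12 is lower in the knockouts in every class mean, and Ccl28 of control 3 often lies with the knockouts.

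Ccl28 (chr13:119623819-119654359, plus strand), a mucosal ligand of Ccr10, had the most UMIs of all ligands, 22824. Over all nuclei it was at 113, 114 and 297 CPM in the controls against 222, 293 and 219 CPM in the knockouts. Control 3 was the highest library of all 6, and the difference was within the spread (log2 change 0.44, SE 0.38, edgeR adjusted p = 0.787); without control 3 the log2 change was 1.04 (adjusted p = 0.233). The highest classes were cycling nuclei, at 259, 257 and 378 CPM against 325, 389 and 295 CPM, and proximal tubule, at 134, 123 and 353 CPM against 291, 366 and 299 CPM. Cycling nuclei stood at 147% of the proximal tubule level in the controls, where the tubule markers were at 81.4%, and at 105% against 73.6% in the knockouts. Immune nuclei were at 65.0% against 79.1% and 58.0% against 79.5%, and the part of tubule RNA in the class levels of Ccl28 was not tested.

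Ccl25 (chr8:4325210-4360020, plus strand, overlapping Elavl1 on the other strand), a ligand of Ccr9, was nearly even between the groups. It was at 74.7, 80.9 and 87.8 CPM in the controls and at 79.7, 79.6 and 92.8 CPM in the knockouts (log2 change -0.01, SE 0.12, edgeR adjusted p = 0.988). Distal convoluted tubule was highest, at 132 to 175 CPM in the controls against 121 to 188 CPM in the knockouts, or 194% of the control proximal tubule level where the tubule markers were at 25.9%. Podocytes were lowest of the 12 classes with at least 10 nuclei in every library, at 43.8, 28.8 and 58.0 CPM against 35, 32.5 and 39.9 CPM.

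Ccl27a, a skin-homing T cell ligand that overlaps Il11ra1 on the other strand, was at 4.18, 5.42 and 5.61 CPM against 3.30, 2.54 and 1.87 CPM (log2 change -1.0, SE 0.32, edgeR adjusted p = 0.308; 0.193 with the block). The groups did not overlap, and the placing of Ccl27a reads is uncertain beside the Ccl27 and Ccl27b copies. Cx3cl1 was at 14.0, 11.2 and 11.7 CPM against 14.2, 6.57 and 8.91 CPM (adjusted p = 0.779), with stroma the highest class in the knockouts, at 35.8, 0 and 52.2 CPM against 52.5, 10.2 and 98.3 CPM. Cxcl14 was also highest in stroma, at 11.9, 9.5 and 20.9 CPM against 5.12, 10.2 and 18.9 CPM. Cxcl17 was at 2.90, 6.97 and 3.88 CPM over all nuclei against 6.52, 4.49 and 3.56 CPM, and Ccl1 at 0.103, 1.29 and 0.949 CPM against 0.0277, 0.346 and 1.07 CPM. Ccl6, a myeloid ligand, was at 0.432, 0.387 and 0.259 CPM against 0.555, 0.461 and 0.267 CPM, and each of these last 3 genes overlapped between the groups.

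**Figure D4:**
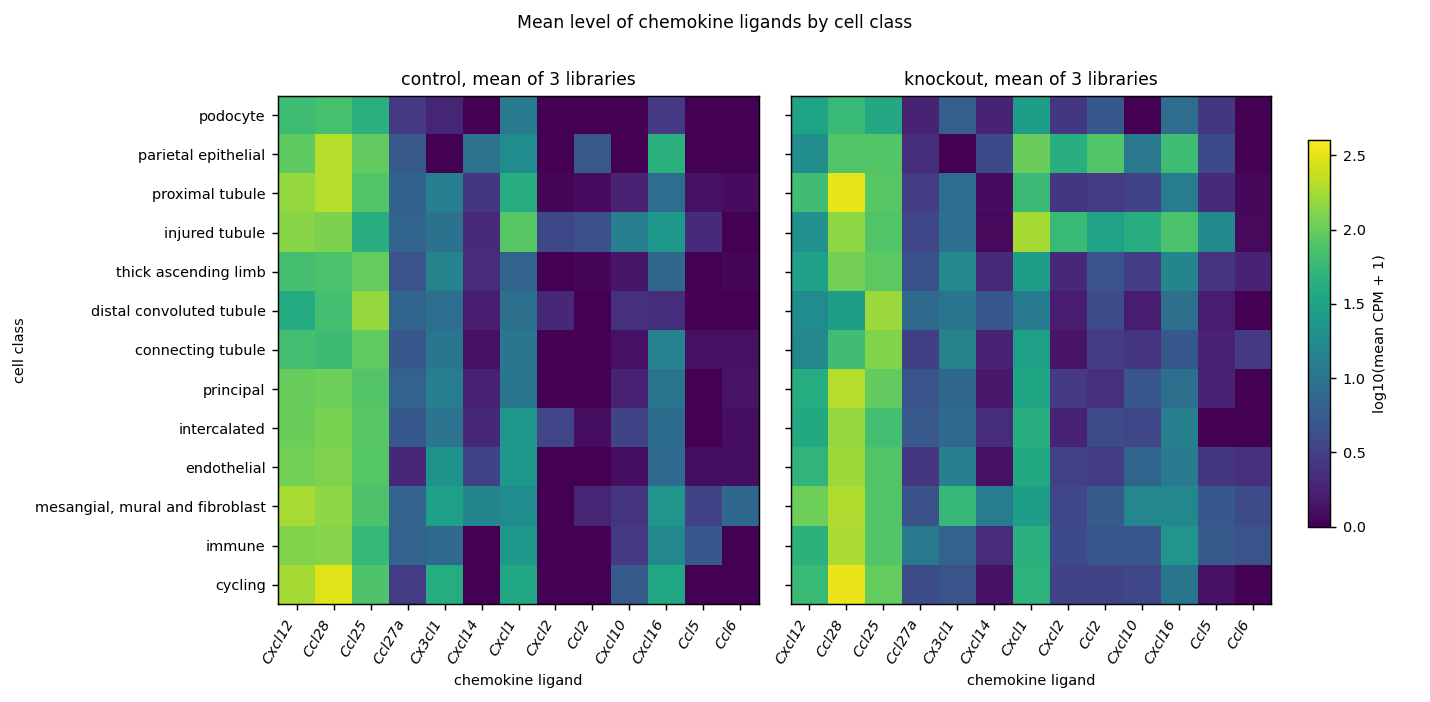
Mean level of 13 ligands (columns) in 13 cell classes (rows) as log10(mean CPM + 1), for controls (left) and knockouts (right), 3 libraries each. Ccl28, Ccl25 and Cxcl12 are seen in every class, and Cxcl1, Cxcl2, Ccl2 and Cxcl10 stand out in injured tubule of the knockouts. Ccl2 is higher still in parietal epithelial nuclei of the knockouts.

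Of the 20 members with UMIs that did not pass the filter over all nuclei, 17 had fewer than 30. Ccl20, Ccl7 and Cxcl5 were the 3 without overlap, all higher in the knockouts, with 25, 25 and 14 knockout UMIs against 1 control UMI each; 3 of 20 is near the share among tested genes, 10.7% higher and 5.52% lower without overlap. Their exact two-sided permutation p was 0.1, the smallest that 3 against 3 allows, and 0.667 after adjustment over the 20. Of the 25 Ccl7 UMIs, 19 were in knockout 1.

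Within the 12 tested classes, 38 pairs of a class and a ligand passed the filter, and none passed an adjusted p of 0.05 in edgeR, where 0.265% of all pairs did. At an unadjusted p under 0.05 there were 12, against 7.42% of all pairs. Of these, 8 were Cxcl12 and 3 were Ccl28, each counted again in several classes of the same 6 libraries. The 38 pairs came from 8 genes, so the 12 do not describe the family as a whole. The block gave 2 of the 38, where 1.21% of all pairs passed. DESeq2 gave 1 of 244 ligand and class pairs, and its share over all pairs is not given here. The median log2 change of the 38 was 0.12 against 0 over all pairs. Ccl2 and Cxcl2 passed the filter in none of these classes, so the main edgeR fit gives their class levels no test outside injured tubule. DESeq2 and the fit without a filter, which took every gene with a UMI, called neither gene in any class.

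The receptors that read these ligands showed no call. Of 23 receptors, 8 passed the filter over all nuclei and 0 passed an adjusted p of 0.05 in edgeR or DESeq2. At an unadjusted p under 0.05 there were 0 in edgeR and 0 in DESeq2, 1 with the block and 2 without both libraries numbered 1. The 3 with most UMIs were Ackr3, a scavenger of Cxcl12, at 45.1 ± 9.67 CPM (SD, n = 3) in controls against 64.5 ± 18.5 CPM in the knockouts, Ackr4, at 43.0 ± 11.1 against 40.3 ± 30.0 CPM, and Cx3cr1, at 10.1 ± 2.51 against 11.2 ± 6.57 CPM. Ackr3 was at 173 ± 58.4 against 114 ± 41.2 CPM in podocytes (edgeR adjusted p = 0.717) and at 137 ± 21.2 against 137 ± 65.1 CPM in parietal epithelial nuclei, the highest class in the controls and in the knockouts respectively.

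The list of 36 NF-kB and cytokine genes, which switch on or accompany the inflammatory ligands, was mostly higher. It was chosen with earlier results of these data known and holds Vcam1, a marker that names the injured class. Its counts and median are therefore descriptions. Of 29 tested over all nuclei, 27 were higher, with a median log2 change of 0.79 against -0.03 for all genes. Vcam1, an adhesion molecule for leukocytes, rose, from 2.07 ± 0.873 to 40.1 ± 21.7 CPM (SD, n = 3; log2 change 4.11, SE 0.53, edgeR adjusted p = 0.0496). Without any 1 library this call was lost, with adjusted p from 0.0502 without knockout 1 to 0.254 without knockout 2. With the block, where 1.73% of all genes passed, Nfkb1, Relb, Icam1 and Il34 rose too. Nfkb1, a subunit of NF-kB, was at 83.2 ± 5.04 CPM in controls against 150 ± 6.41 CPM in the knockouts (adjusted p = 0.0639; 0.0308 with the block).

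In parietal epithelial nuclei, where 6.39% of all genes passed, 4 genes of that list rose. The proximal tubule markers stood there at 61.6% of their proximal tubule level in the controls and 30.5% in the knockouts, and the part of this in the result was not tested. Vcam1 had no control UMI and was at 232, 227 and 294 CPM in the knockouts, at least 10.3-fold higher when the control group is put at the same floor (edgeR adjusted p = 0.00616). With no control UMI, Vcam1 passed the filter on low counts through the knockouts alone, which limits this p. Nfkb1 was at 144, 80.1 and 198 CPM against 472, 688 and 708 CPM (log2 change 2.08, SE 0.35, adjusted p = 0.00908). Il34, a ligand of the macrophage receptor Csf1r, was at 131, 400 and 238 CPM against 785, 1343 and 1279 CPM (adjusted p = 0.00908). Birc3, an NF-kB target, rose as well (log2 change 1.91, adjusted p = 0.0457). Without control 1 none of the 4 passed, with adjusted p of 0.0556 for Vcam1, 0.0867 for Nfkb1, 0.0867 for Il34 and 0.197 for Birc3. Nfkb1 also missed it without control 2 (0.0609), and Birc3 passed only without knockout 3 among the 6 libraries left out. In injured tubule without control 2, where 2.35% of all genes passed, 4 of the 20 tested genes of the list rose: Vcam1, Nfkbiz, Nfkb1 and Il34. Vcam1 is among the markers that name this class, so its rise there is not independent of the naming.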

How the data were processed

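Single-nucleus RNA libraries (10x Chromium) were made from kidney cortex, 3 per group. The authors deposited raw UMI counts per gene and barcode, made by Cell Ranger (version 3.1.0, per the file headers; build mm10, per the submitters' processing notes); its settings, and whether counting used strand, are not given in the sources used here. Barcodes were kept from 300 genes upward and up to 5% mitochondrial UMIs, and, since Scrublet's own threshold marked only 0 to 6 barcodes per library, the highest scores were removed at up to 0.8% per 1000 barcodes (104 to 3829 barcodes per library), a rate set after seeing the data. Leiden clustering (scanpy 1.11.5, igraph 0.11.9), first of all nuclei (3000 variable genes, 30 components, 20 neighbours, resolution 1.5) and then of nuclei outside the proximal tubule (40, 15 and 2.5), left out all chemokine ligands and receptors and gave 52 clusters. These were named from marker lists where 3 or more markers were detected and their mean log2 ratio to other nuclei reached 1.0 (0.7 for injured tubule with 2 leading markers); these thresholds were chosen with the clusters in view, and 3769 mixed and 1336 unnamed nuclei enter only totals. Names were rebuilt here, which may account for differences from the study.

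Raw counts were summed per library and class and tested with edgeR 4.0.16 (quasi-likelihood, TMM, filterByExpr, Benjamini-Hochberg over all genes of a fit) where every library had 10 nuclei; DESeq2 1.42.0 was an alternative. The fit was tested on simulated data. The labels do not say that replicates were separate animals, so p-values measure the spread between these libraries. Deviations from the group means correlated at 0.66, 0.37 and 0.38 between libraries with the same number, which the labels give. Between libraries with different numbers they correlated at -0.53 to 0.42 (0.42 for control 3 with knockout 2 and 0.33 for control 2 with knockout 3). Only the pair numbered 1 was above all of these. Since every same-number value was above 0.1, values with the number as a block are given beside the main test for several genes. Intervals and floors cover counting error only. Gene positions are from GENCODE vM21 (GRCm38). Members with at least 30 UMIs or called in a fit were described singly; of the other lists, called genes or the 3 with most UMIs. Members and lists were chosen with earlier results of these data known.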

Additional observations from a re-analysis of the deposited data

How the results depend on the processing

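Of the ligands over all nuclei, 0 passed in the main test and when any 1 library was left out (range 0 to 0); 4 passed with the replicate block, 4 in DESeq2, 4 without both libraries numbered 1, 2 without a filter on low counts and 1 with library totals in place of TMM. Ligand and class pairs went from 0 to 2 with the block, 1 in DESeq2, 8 without a filter, and 0 to 3 when a library was left out: 3 without control 2 (Cxcl1, Cxcl2 and Cxcl12 in injured tubule), 1 without control 3 (Cxcl12 in cycling nuclei) and 2 without knockout 1 (Cxcl12 in cycling and Ccl28 in parietal epithelial nuclei). The NF-kB and cytokine list over all nuclei went from 1 to 9 in DESeq2, 2 with library totals, 2 without a filter, 5 with the block, 5 without both libraries numbered 1, and 0 when any 1 library was left out; within classes it went from 4 to 17 without a filter, 11 with the block, 2 with doublets kept, 2 with names by highest score, and 0 to 6 when a library was left out (0 without control 1). Within classes, DESeq2 and the fit without a filter covered 244 ligand pairs in place of 38, and 389 list pairs in place of 109. Of all gene and class pairs, 0.265% passed in the main test and 1.21% with the block, and shares for other settings are not given here. Of all genes over all nuclei, 0.283% passed without a filter and 0.285% with library totals. The genes called over all went from 31 to 279 with the block, 453 in DESeq2 and 461 without both libraries numbered 1. The cause was not tested. The sign of Ccl25 changed, at 0.00 in DESeq2 and without a filter, 0.05 with library totals, 0.01 with all barcodes, 0.03 without both libraries numbered 1 and -0.05 to 0.04 when 1 library was left out; Cxcl17 was at -0.41 without both libraries numbered 1 and at -0.18 to 0.46 when 1 library was left out, and Ccl1 at -2.35 to 0.01 when 1 library was left out. Ccl2, Cxcl2, Cxcl10 and Cxcl12 kept their direction in all 14 alternatives over all nuclei, at 4.22 to 5.57, 3.66 to 5.91, 1.87 to 2.69 and -1.76 to -1.27. Names by highest score kept the first proximal tubule clusters. Few UMIs limit Ccl2 and Cxcl2 in the controls (12 and 13) and all members in podocytes.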
